A study of Komagataella phaffii with 32 samples.

Results

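The comparison set 3 RNA sequencing libraries of a crz1 mutant of the yeast Komagataella phaffii (also called Pichia pastoris) against 3 libraries of the wild type, all taken 30 min after the cells were moved to pH 8.0. These 6 libraries were chosen by strain and time from the 32 of the study. Of 4226 genes tested with limma, 18 (0.426%) were lower in crz1 and 0 were higher (21 higher at an unadjusted p under 0.05). TOH1, a cell wall glucanase, was 21.0-fold lower. The 18 genes included the vacuolar calcium pump PMC1, the calmodulin-dependent kinase CMK2, a pair of mannosyltransferases, the methionine sulfoxide reductase MXR2-1 and the peroxisomal enzyme ARY100.

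Crz1 is a zinc finger transcription factor. In Saccharomyces cerevisiae, a rise of calcium in the cytosol activates the phosphatase calcineurin, which removes phosphate from Crz1, and Crz1 then enters the nucleus and switches on its target genes. Alkaline medium is one of the stresses that raise cytosolic calcium in that yeast. Its Crz1 targets include calcium pumps and genes of the cell wall.

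The wild type (WT) is strain X-33, and the crz1 mutant is the isogenic strain PJA-001, whose genotype is labelled crz1_559. A rim101 mutant, PJA-007 (labelled rim101_117), gives values beside them. Each mutant is 1 strain, so the comparison rests on a single mutant line per gene, and the series text names GS115 where the sample labels name X-33. Cells grew at 28 °C in yeast extract and peptone with glycerol at 20 g/L, were diluted to an OD600 of 0.2, grown to about 0.6 and then moved to fresh medium with 50 mM TAPS. Time 0 (T0) was sampled at pH 5.5, and stressed cultures were sampled after 15, 30 and 60 min at pH 8.0 (T15, T30, T60). No pH 5.5 library was made at the later times, so change from T0 to T30 joins the pH, the time and the growth. WT and crz1 had n = 3 libraries a group and rim101 n = 2. The labels do not say whether replicates were grown separately, so the p-values measure the spread between these libraries.

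The deposited values are RPKM, reads per kilobase of gene, divided by the depth of the library. Read from the spacing of the low values, the 6 libraries held 4.95 to 13 M reads. Replicate 1 of both groups had a higher median over the tested genes (51.46 and 51.56 RPKM) than the other 4 libraries (27.12 to 35.41 RPKM). This split crosses the strains and was seen in 9 of the 32 libraries. Each of the 6 libraries listed 935 to 1039 of the 5040 genes at exactly 0, while only 2 to 21 genes had any given number of reads from 1 to 15. Of 30 measured genes known as essential in S. cerevisiae, 8 were listed at 0 in at least 1 of the 6 libraries. The Mediator subunit MED7, for example, was at 23.7, 0.64 and 0 RPKM in WT and at 27.6, 0 and 0 RPKM in crz1. A value of 0 in this file is therefore given here only as listed at 0, and values of a few RPKM carry the same doubt.

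Expression was tested on log2(RPKM + 1) with limma over all 32 libraries, with Benjamini-Hochberg adjustment across the 4226 genes. Log2 differences are on that scale, which understates the change of low genes. A gene is called lower or higher at an adjusted p under 0.05, and 14 of the 18 lower genes (0.331% of those tested) were at least 2-fold lower. At an unadjusted p under 0.05, 93 genes (2.2%) were lower and 21 (0.497%) were higher. In all 18 genes every crz1 library lay below every WT library, an arrangement met by 131 genes (3.1%) in this direction and by 173 (4.09%) in the other. The median log2 difference of all tested genes was 0.04. A fit restricted to the 6 libraries called only TOH1 and MXR2-1, and 6 of the 18 calls held with each of the 6 libraries left out in turn (TOH1, MXR2-1, MNN2-3, PAS_chr1-1_0101, PAS_chr2-1_0009 and PAS_chr3_1232). Without replicate 1 of both groups, the pair with the higher median, 6 of the 18 were called (the same names with ARY100 in place of MNN2-3), and all 18 differences stayed negative.

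**Figure D1:**
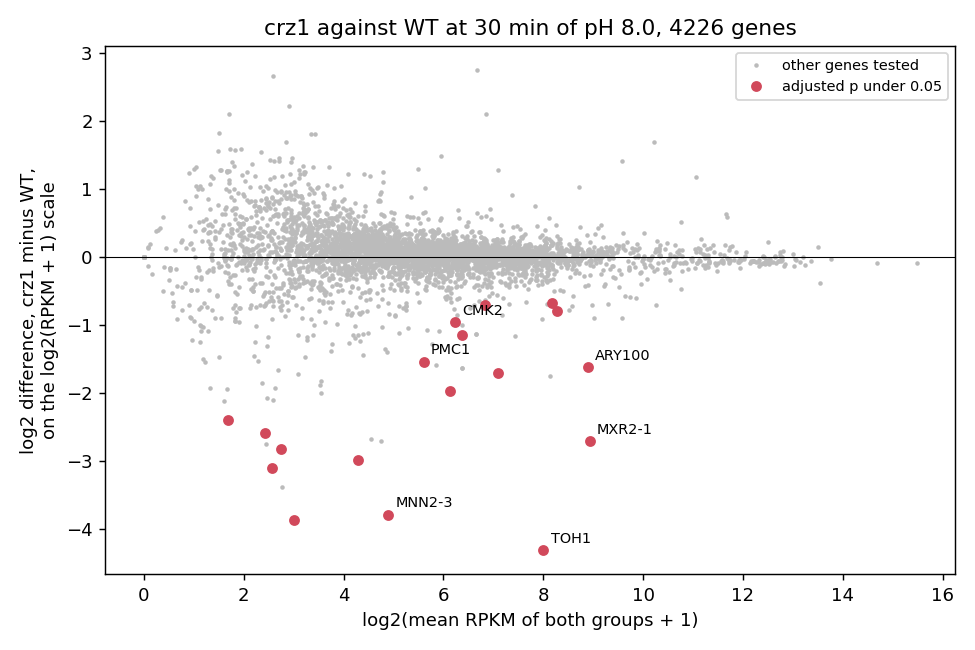
Log2 difference between crz1 and WT at 30 min of pH 8.0 (vertical axis, log2(RPKM + 1) scale) against the log2 mean level of both groups (horizontal axis), with 1 point per gene for 4226 genes. The 18 genes past the threshold, in red, all lie below 0, and TOH1 and MXR2-1 stand far below other genes of their level.

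CRZ1 mRNA did not check the genotype. CRZ1 was at 32.2, 26.3 and 28.2 RPKM in WT and at 54.6, 30.1 and 30.4 RPKM in crz1. The groups overlapped, and the difference did not pass the test (log2 0.35, SE 0.25, adjusted p = 1). The labels do not say what the mutation leaves of the transcript. RIM101, the alkaline pH factor mutated in the other strain, was at 143, 135 and 120 RPKM in WT and at 127, 122 and 131 RPKM in crz1, and these values also overlapped.

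**Figure D2:**
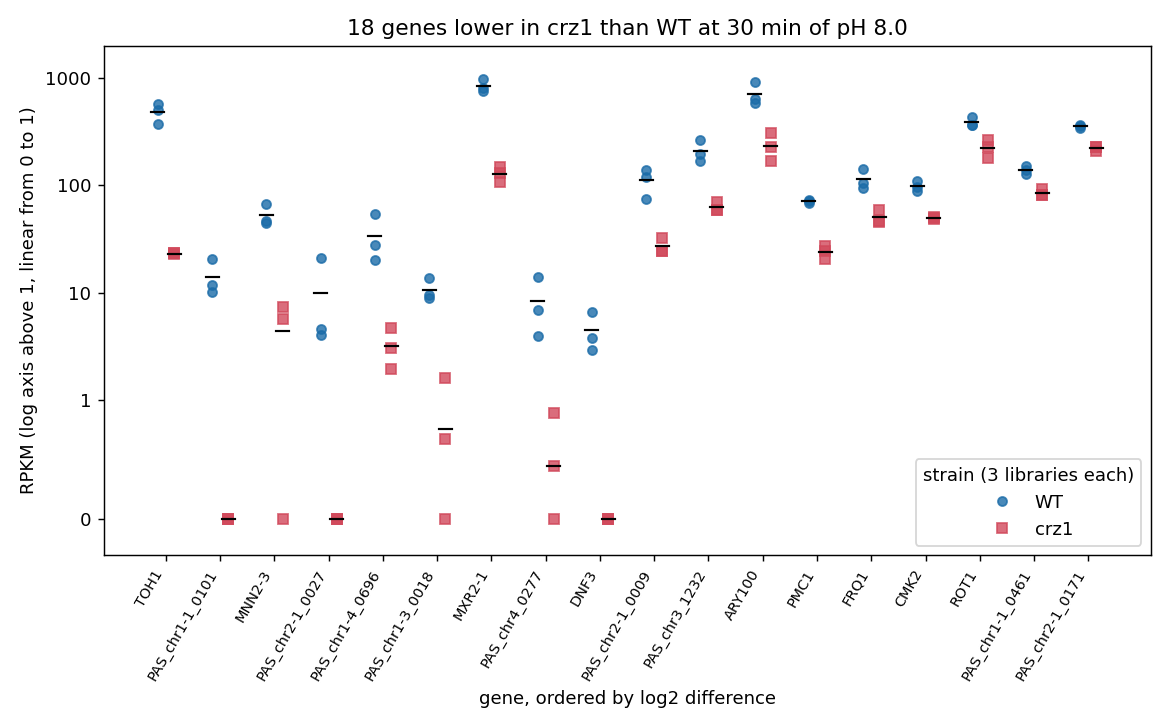
RPKM of the 18 lower genes in the 3 WT (blue circles) and 3 crz1 (red squares) libraries at 30 min of pH 8.0, with means as black bars. The axis is logarithmic above 1 and linear from 0 to 1, and in each gene all crz1 points lie below all WT points.

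Genes of calcium handling and signalling were led by PMC1, which encodes the pump that moves calcium into the vacuole. PMC1 (PAS_chr1-1_0117, chromosome 1, 767249 to 770914, minus strand) was at 72, 73.2 and 68.6 RPKM in WT and at 20.7, 24.3 and 27 RPKM in crz1. The 2.97-fold difference was far wider than the gaps within either group (log2 -1.54, SE 0.28, adjusted p = 0.00712). At T0 the gene did not separate the strains, at 11.2, 11.2 and 14.5 RPKM in WT and 12.5, 12.6 and 12.2 RPKM in crz1. From T0 to T30 PMC1 rose by a log2 of 2.45 in WT and of 0.89 in crz1 (adjusted p = 9.38e-07 and 0.0238). The rise in crz1 did not pass with median-ratio scaling or quantile normalization (adjusted p = 0.36 and 0.723), and the difference between those changes did not pass (adjusted p = 0.349). Without crz1 replicate 1 the T30 call was lost (adjusted p = 0.0532), as it was with quantile normalization (adjusted p = 0.104).

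CMK2 (PAS_chr1-4_0302, chromosome 1, 1970208 to 1971398, plus strand) encodes a calmodulin-dependent protein kinase. It was at 110, 88.7 and 95.8 RPKM in WT and at a narrow 49.9, 49.1 and 50.3 RPKM in crz1, 1.97-fold lower (log2 -0.96, SE 0.19, adjusted p = 0.0137). It had no called rise in WT from T0 (log2 0.44, adjusted p = 0.0804). Its fall in crz1 was called only with median-ratio scaling or quantile normalization (adjusted p = 0.0203 and 0.0323). In the main fit the difference between those changes did not pass (adjusted p = 0.562). The T30 call was lost without WT replicate 1, or without any 1 of the crz1 replicates (adjusted p 0.0551 to 0.143), and with median-ratio scaling (adjusted p = 0.155).

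FRQ1 (PAS_chr1-1_0170, chromosome 1, 874716 to 875288, minus strand) encodes a small calcium-binding protein that in S. cerevisiae activates the phosphatidylinositol 4-kinase Pik1. Its levels were 141, 106 and 95.3 RPKM in WT and 59.2, 46.2 and 46 RPKM in crz1, 2.26-fold lower (log2 -1.15, SE 0.24, adjusted p = 0.0236). FRQ1 still rose in crz1 from T0 to T30 (log2 1.21, not called with quantile normalization, adjusted p = 0.0517), against 2.09 in WT. These changes did not differ past the threshold. The T30 call was lost without WT replicate 1 or 2, or crz1 replicate 2 or 3 (adjusted p 0.0819 to 0.258).

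Of 11 measured genes of calcium handling and calcineurin, 2 were lower (PMC1 and CMK2), 0 were higher and 9 did not pass, with a median log2 difference of 0.00 beside 0.04 for all genes. Only PMC1 remained called with median-ratio scaling, and neither with quantile normalization. The calcineurin catalytic subunit CMP2 was at a mean of 21.6 RPKM in WT and 21.8 in crz1. PMR1, the Golgi calcium and manganese pump, averaged 59 and 58.7 RPKM. VCX1, the vacuolar calcium and proton exchanger, averaged 197 and 179 RPKM (log2 -0.13, SE 0.24). None of these 3 passed the test.

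Cell wall and surface glycan genes were represented by 4 of the 18. TOH1 (PAS_chr2-2_0271, chromosome 2, 1882754 to 1883968, minus strand) is annotated as a glucan endo-1,3-beta-glucosidase, an enzyme that cuts the main glucan of the wall. It was at 580, 504 and 378 RPKM in WT and at 23.4, 22.8 and 23.3 RPKM in crz1. The lowest WT library stood well above the highest crz1 library, and the difference was 21.0-fold (log2 -4.31, SE 0.23, adjusted p = 7.37e-12). TOH1 already differed before the stress, at 103, 161 and 137 RPKM in WT and 26.1, 19.8 and 17.5 RPKM in crz1 at T0 (log2 -2.60, adjusted p = 2.86e-07). From T0 to T30 it rose in WT (log2 1.86, adjusted p = 3.13e-06) and had no called change in crz1 (log2 0.15, adjusted p = 0.68). The difference between those changes just missed the threshold (adjusted p = 0.0512).

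MNN2-3 (PAS_chr3_0787, chromosome 3, 1508840 to 1510579, minus strand) is annotated as an alpha-1,2-mannosyltransferase, the class of Golgi enzyme that adds mannose branches to glycoproteins. It was at 67.1, 47.1 and 44.5 RPKM in WT and at 0, 7.36 and 5.71 RPKM in crz1 (log2 -3.79, SE 0.61, adjusted p = 0.00149). The strains overlapped at T0, with 22.3, 25.7 and 26.4 RPKM in WT and 30.9, 26.6 and 21.4 RPKM in crz1. MNN2-3 fell in crz1 from T0 to T30 (log2 -2.82, adjusted p = 0.00145). Its change in WT did not pass (log2 1.04, adjusted p = 0.197). Nor did the difference between those changes (adjusted p = 0.219). The T30 call was lost with a pseudocount of 0.1 RPKM (adjusted p = 0.0622).

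PAS_chr1-4_0696 (chromosome 1, 2568910 to 2570694, minus strand) is annotated as beta-mannosyltransferase 3, the class of enzyme that adds beta-linked mannose to yeast glycans. Its levels were 54.3, 27.8 and 20.1 RPKM in WT and 4.64, 3.05 and 1.96 RPKM in crz1 (log2 -2.99, SE 0.60, adjusted p = 0.0169). The WT libraries spread widely, with replicate 1 the highest. The call was lost without WT replicate 1 or 2, or crz1 replicate 2 or 3 (adjusted p 0.0731 to 0.173). The gene was also low in rim101 at T30, at 9.14 and 5.12 RPKM. Its crz1 values did not differ from those of rim101 past the threshold (log2 -0.95, SE 0.67, adjusted p = 0.485).

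ROT1 (PAS_FragB_0048, chromosome 1, 2745117 to 2745878, plus strand) encodes an endoplasmic reticulum protein that S. cerevisiae needs for normal wall beta-glucan. It was at 370, 363 and 433 RPKM in WT and at 180, 265 and 230 RPKM in crz1, 1.73-fold lower (log2 -0.80, SE 0.18, adjusted p = 0.0413). It had the highest adjusted p of the 18, and its call was lost in all leave-one-out fits except the one without crz1 replicate 2 (adjusted p 0.105 to 0.382). It was also lost with median-ratio scaling and quantile normalization (adjusted p = 1 and 0.854).

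Among 24 measured cell wall biogenesis genes, 2 were lower (TOH1 and ROT1), 0 were higher and 22 did not pass, and the median log2 difference was -0.26. The only one left with either scaling was TOH1. The yapsins are surface aspartyl proteases that work on the wall. None of 4 passed, and the lowest was YPS1-2 (mean 476 RPKM in WT and 287 in crz1, log2 -0.73, SE 0.20, adjusted p = 0.191). None of 8 cell wall integrity signalling genes passed either, and WSC2, a wall stress sensor, differed most (log2 0.63, SE 0.82). Members were matched by symbol, and MLP1 among these 8 is annotated as a myosin-like protein associated with the nuclear envelope.

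Redox and peroxisomal metabolism were represented by 2 abundant genes. MXR2-1 (PAS_chr2-1_0008, chromosome 2, 13442 to 13843, plus strand) encodes a methionine-R-sulfoxide reductase, which repairs oxidised methionine in proteins. It was at 752, 973 and 814 RPKM in WT and at 107, 148 and 131 RPKM in crz1, 6.57-fold lower (log2 -2.71, SE 0.24, adjusted p = 1.43e-07). The strains already differed at T0, with 289, 434 and 304 RPKM in WT and 118, 123 and 131 RPKM in crz1 (log2 -1.44, adjusted p = 0.00836). The rise from T0 to T30 passed in WT (log2 1.32, adjusted p = 0.000315, and 0.158 with median-ratio scaling) and not in crz1 (log2 0.05, adjusted p = 0.909), while the difference between the changes did not pass (adjusted p = 0.445).

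ARY100 (PAS_chr2-2_0019, chromosome 2, 2357846 to 2358685, plus strand) is annotated as a peroxisomal 2,4-dienoyl-CoA reductase, an auxiliary enzyme of fatty acid beta-oxidation. Its levels were 637, 925 and 586 RPKM in WT and 309, 226 and 168 RPKM in crz1, 3.05-fold lower (log2 -1.62, SE 0.31, adjusted p = 0.00933). The call was lost without WT replicate 2 (adjusted p = 0.0989) or crz1 replicate 3 (adjusted p = 0.13).

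Of 29 oxidative stress defence genes, MXR2-1 alone was lower, 0 were higher and 28 did not pass, with a median of -0.03. None of 18 genes of methanol utilisation and the peroxisome passed. PEX20, a peroxisomal import factor, had the most negative value (log2 -1.93, SE 0.85, adjusted p = 1).

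Among genes annotated with regulatory domains, PAS_chr2-1_0009 had the highest level. It encodes a protein with a C2H2 zinc finger domain, the fold that many DNA-binding factors share (chromosome 2, 14152 to 15947, minus strand). It was at 139, 121 and 74.2 RPKM in WT and at 32.5, 24.3 and 24.2 RPKM in crz1, 4.12-fold lower (log2 -1.97, SE 0.26, adjusted p = 9.58e-05). PAS_chr2-1_0009 rose from T0 to T30 in both strains, by a log2 of 2.65 in WT and of 1.92 in crz1. These rises did not differ past the threshold. At T0 the gene stood at 14.7 to 17.4 RPKM in WT and 5.11 to 7.09 in crz1 (adjusted p = 0.0902). It lies beside MXR2-1, and the genes point toward each other with 308 bases between them. The libraries were not directional, so reads past the end of either gene cannot be assigned by strand. These were the only neighbours among the 18, and no other immediate neighbour that was tested was called. On the other side of MXR2-1, PAS_chr2-1_0007 was at 20.6, 11 and 3.39 RPKM in WT and listed at 0 in all 3 crz1 libraries, but it did not pass (adjusted p = 0.186).

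PAS_chr1-3_0018 (chromosome 1, 33147 to 35351, minus strand) carries a fungal Zn(2)-C6 domain, a DNA-binding fold of fungal transcription factors. It was at 13.7, 9.49 and 8.94 RPKM in WT and at 0, 1.6 and 0.67 RPKM in crz1 (log2 -2.82, SE 0.57, adjusted p = 0.0172). All crz1 values were close to 0, and the call was lost without WT replicate 1 or 2, or crz1 replicate 1 or 3 (adjusted p 0.0744 to 0.143).

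PAS_chr4_0277 (chromosome 4, 554321 to 557053, plus strand) is annotated from a two-hybrid interaction with Sin3, the scaffold of a histone deacetylase complex. Its levels were 14, 6.97 and 3.99 RPKM in WT and 0.887, 0 and 0.442 RPKM in crz1 (log2 -2.59, SE 0.55, adjusted p = 0.0269). The groups did not overlap, but leaving out any library except WT replicate 3 ended the call (adjusted p 0.0537 to 0.316). So did a pseudocount of 20 RPKM in place of 1, tried after the listed zeros were seen (adjusted p = 0.187).

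Trafficking, ubiquitin and membrane lipid genes were low in WT and listed at 0 in all 3 crz1 libraries, so no fold is given. PAS_chr1-1_0101 (chromosome 1, 740817 to 742283, plus strand) has an arrestin-like domain, found in yeast adaptors that bring ubiquitin ligases to plasma membrane transporters. It was at 20.5, 10.2 and 11.8 RPKM in WT at T30 (196, 96 and 133 reads), and adjusted p was 5.43e-06. At T0 it was listed at 0 in all 6 libraries of both strains. This was the single gene (0.0237% of those tested) whose change from T0 to T30 differed between the strains (adjusted p = 0.00558). With a pseudocount of 20 RPKM its T30 call held (adjusted p = 0.00796), and that of the change did not (adjusted p = 0.456).

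DNF3 (PAS_chr2-1_0807, chromosome 2, 83824 to 88701, plus strand) encodes a flippase, which moves phospholipids between membrane leaflets. It was at 6.66, 3.78 and 2.95 RPKM in WT (212, 118 and 111 reads), with adjusted p = 0.00459. Leaving out WT replicate 1 ended the call (adjusted p = 0.0544), as did a pseudocount of 20 RPKM (adjusted p = 0.187). The DNF3 call was also lost with quantile normalization and without the higher-median libraries. PAS_chr2-1_0027 (chromosome 2, 51223 to 52572, plus strand) carries a MINDY domain, that of a family of deubiquitinases. It was at 21.1, 4.63 and 4.04 RPKM in WT, with replicate 1 far above the others, and adjusted p was 0.0389. The call was lost without any 1 of the libraries except WT replicate 3 (adjusted p 0.0744 to 0.439), and with a pseudocount of 20 RPKM (adjusted p = 0.678).

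3 further genes have little or no known function. PAS_chr3_1232 (chromosome 3, 1691933 to 1692520, plus strand) is uncharacterised, and it was at 264, 195 and 170 RPKM in WT and 70.4, 58.7 and 58.5 RPKM in crz1, 3.35-fold lower (log2 -1.71, SE 0.23, adjusted p = 9.58e-05). It rose from T0 in WT (log2 1.36) and had no called change in crz1 (log2 -0.00, adjusted p = 0.999). The difference between those changes did not pass (adjusted p = 0.309). PAS_chr1-1_0461 (chromosome 1, 532864 to 533487, plus strand) has a Gag1-like clamp domain, and was at 140, 151 and 129 RPKM in WT and 92.9, 81.9 and 80.7 RPKM in crz1 (log2 -0.71, SE 0.15, adjusted p = 0.0236). PAS_chr2-1_0171 (chromosome 2, 314197 to 314685, minus strand) is uncharacterised, and was at 356, 364 and 346 RPKM in WT and 207, 229 and 229 RPKM in crz1 (log2 -0.68, SE 0.13, adjusted p = 0.00933). Both of these smaller differences came from tight, separate groups. Each call was nevertheless lost without WT replicate 1 or 2 or crz1 replicate 1, and that of PAS_chr1-1_0461 also without crz1 replicate 2 or 3 (adjusted p 0.0512 to 0.203 over both genes). Neither was called with median-ratio scaling or quantile normalization.

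Libraries of other times do not enter the T30 means, but they share the estimate of the spread and the filter on low values. The calls at those times are therefore not independent of the choice of the 18. Each stressed culture was also sampled repeatedly, so the times may share cultures. At T0, 2 of the 18 genes were lower in crz1 (TOH1 and MXR2-1), and these were the only 2 lower genes of all tested (0.0473%). At T15, 12 of the 18 were lower (66.7%), and they made up 50% of the 24 genes lower at that time (0.568% of those tested). At T60, 6 of the 18 were lower (33.3%), and they made up 60% of the 10 lower genes (0.237% of those tested). All 18 log2 differences were negative at T15, where 25.1% of all tested genes were. At T60, 17 of the 18 were negative, where 65.8% of all tested genes were, and DNF3 was listed at 0 in all 6 libraries.

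The genes lower at T15, T30 and T60 were TOH1, MXR2-1, MNN2-3, PAS_chr2-1_0009 and PAS_chr3_1232. TOH1 was at 219, 305 and 201 RPKM in WT and at 10.5, 11 and 10.7 RPKM in crz1 at T60 (log2 -4.35, adjusted p = 6.22e-12). PAS_chr1-4_0696 was lower at T30 and at T60 but not at T15, and at T60 it reached 90.5, 99.1 and 43.5 RPKM in WT against 6.82, 3.58 and 4.44 in crz1 (log2 -3.68, adjusted p = 0.00266). PMC1 was lower at T15 (log2 -1.60, adjusted p = 0.00379), and at T60 WT had come down to 22.6, 30.8 and 42.1 RPKM and overlapped crz1 at 17.3, 24.2 and 25 RPKM. PAS_chr1-1_0101 was called at T15, and at T60 it was listed at 0, 0 and 0.51 RPKM in WT and at 0 in crz1. FRQ1, ARY100, PAS_chr1-3_0018, PAS_chr1-1_0461 and PAS_chr2-1_0171 were also called at T15 and T30 and not at T60. CMK2, ROT1, DNF3, PAS_chr4_0277 and PAS_chr2-1_0027 were called at T30 alone. The differences between times were not tested.

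**Figure D3:**
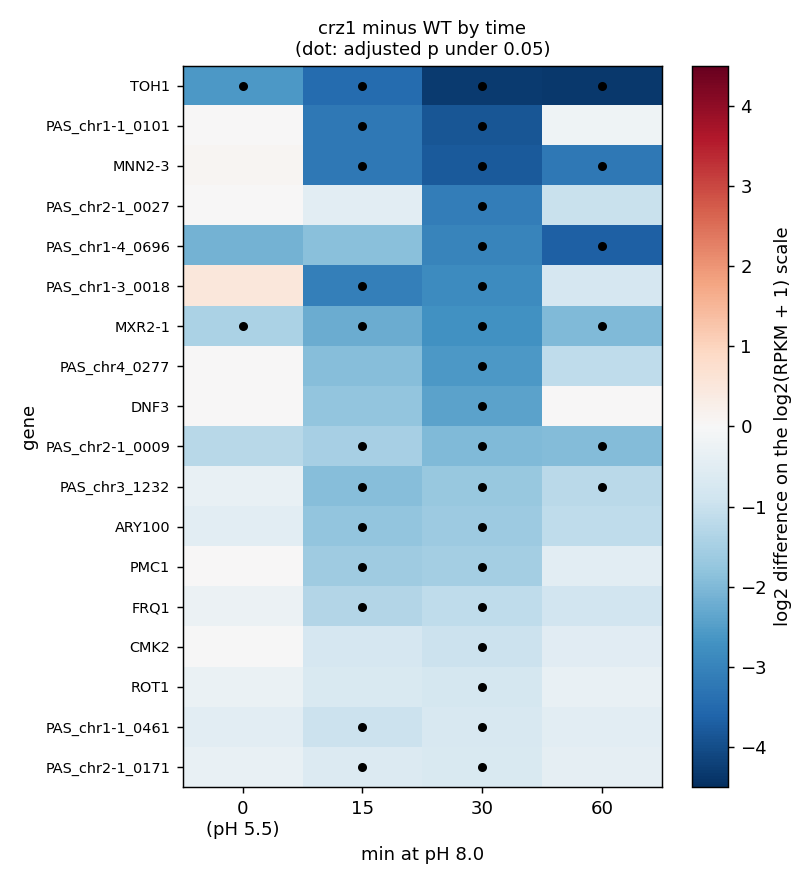
Log2 difference between crz1 and WT (colour, log2(RPKM + 1) scale, blue for lower in crz1) of the 18 genes at 0, 15, 30 and 60 min. Black dots mark an adjusted p under 0.05, with 2 dots at 0 min, 12 at 15 min, 18 at 30 min and 6 at 60 min.

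The change since T0 shares the T30 libraries with the main comparison, so its values are given side by side only. Over all tested genes the median log2 change was 0.62 in WT and 0.43 in crz1, and with median-ratio scaling 0.14 and 0.06. In WT, 16 of the 18 genes rose from T0 to T30, where 24.1% of all tested genes did and 4.07% fell, and CMK2 and MNN2-3 did not pass. With median-ratio scaling 11 of the 18 rose in WT (13.6% of all genes rose and 8.57% fell), and with quantile normalization 12 did (8.9% and 7.34%). In crz1, 5 of the 18 rose (FRQ1, PAS_chr2-1_0009, PMC1, ROT1 and PAS_chr1-4_0696), 1 fell (MNN2-3) and 12 did not pass, while 16.8% of all genes rose and 5.28% fell. With median-ratio scaling 3 rose in crz1 and 2 fell (11.6% and 8.8% of all genes), and with quantile normalization 1 rose and 2 fell (10.1% and 9.75%). The gene that rose in crz1 with each scaling was PAS_chr2-1_0009, and MNN2-3 fell with each. WT libraries of T15 do not enter the T30 means, though they share the estimate of the spread. At T15, 14 of the 18 rose from T0 in WT, against 13.4% of all genes. With other scalings that count was 11 (median-ratio, 14% of all genes) and 10 (quantile, 11.3%).

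The rim101 mutant has no CRZ1 mutation in its labels, and its libraries enter neither side of the main comparison. Those libraries do share the estimate of the spread with it. All 18 genes rose in rim101 from T0 to T30, where 23.5% of all tested genes rose. Both of its T30 libraries have the higher median, and 11 of the 18 rose with median-ratio scaling (8.47% of all genes) and 12 with quantile normalization (7.76%). TOH1 went from 105 and 176 RPKM at T0 to 1011 and 885 at T30 in rim101, and PMC1 from 8.1 and 26.7 to 106 and 83.9. ARY100 went from 233 and 488 to 769 and 911 RPKM. Set against WT at T30, which shares libraries with the main comparison, 0 of the 18 genes were lower or higher in rim101 by limma, where 0.876% and 0.639% of all tested genes were.  PAS_chr1-4_0696 was lower in rim101 than in WT under median-ratio scaling and under quantile normalization (adjusted p = 0.0253 and 0.00027), though not without them (log2 -2.04, adjusted p = 0.206). No other of the 18 was called under these scalings. In the main fit, 1 of the 18 was lower in rim101 and 8 were higher at an unadjusted p under 0.05. The share of all tested genes past that limit was not counted. The median log2 difference between rim101 and WT in the main fit was 0.50 for the 18 and 0.41 for all tested genes. These medians fell to 0.11 and 0.03 after median-ratio scaling, and to 0.16 and -0.01 after quantile normalization.

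**Figure D4:**
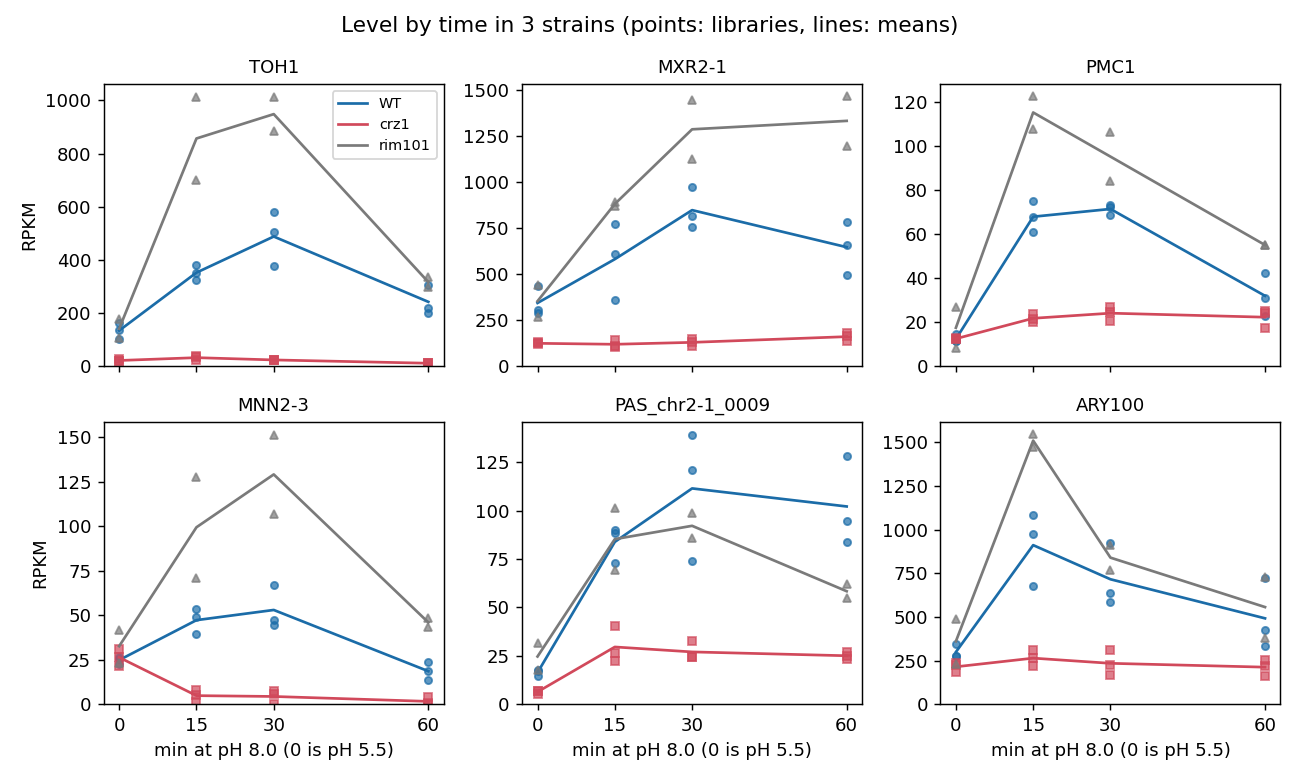
RPKM of 6 of the lower genes by time after the move to pH 8.0 (0 min is pH 5.5) in WT (blue), crz1 (red) and rim101 (grey), with points for libraries and lines for means. In crz1 TOH1 and MXR2-1 had no called change from 0 to 30 min and MNN2-3 fell, while the WT and rim101 means of all 6 genes are higher at 30 min than at 0.

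The other 17 gene lists, the wall integrity and yapsin lists and the peroxisomal one included, gave no call in either direction. Their median log2 differences lay between -0.57 (yapsins) and 0.26 (trehalose and glycogen). Phosphate acquisition and storage is induced by alkaline medium in yeasts, and 9 of its 18 measured genes rose in WT from T0 to T30 (8 with either scaling), where 24.1% of all tested genes did. None of these 18 phosphate genes passed the test between crz1 and WT at T30, with a median log2 difference of 0.10. PHO89, a sodium-coupled phosphate transporter of alkaline conditions, averaged 4178 RPKM in WT and 4415 in crz1 (log2 0.08, SE 0.47). GDE1, a glycerophosphodiesterase, differed most of that list (log2 0.87, SE 0.46, adjusted p = 1). In iron, copper and zinc uptake, 0 of 30 passed, and FET4-1, a low-affinity iron transporter, was the highest (log2 1.48, SE 0.39, adjusted p = 0.145). In monovalent cation and proton transport 0 of 9 passed (TRK2, a potassium transporter, log2 -1.02), and in the vacuolar ATPase 0 of 15 (VMA22 log2 0.40).

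The Rim alkaline pH pathway, which acts through Rim101, had 0 of 5 genes past the threshold. NRG1, a repressor, had the most negative value there (log2 -2.70, SE 0.77, adjusted p = 0.225), with means of 43.2 RPKM in WT and 8.94 in crz1. Protein folding genes gave 0 of 19 heat shock chaperones (SSA3 log2 0.28) and 0 of 13 genes of ER folding and the unfolded protein response. In that ER list 12 of 13 values were negative, where 40.5% of all genes were, and the median was -0.23. Sulfate assimilation gave 0 of 22, with 17 negative values and a median of -0.25. Neither list has a called gene, and these medians are descriptions.

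Central metabolism gave 0 of 14 glycolytic genes (HXK1, hexokinase, log2 -0.89), 0 of 16 of the tricarboxylic acid cycle (IDP2 log2 -0.78) and 0 of 10 of trehalose and glycogen (ATH1, the acid trehalase, log2 0.91). All 10 values of the trehalose and glycogen list were positive, with a median of 0.26, where 40.5% of all tested genes were negative. With quantile normalization 1 of the 10 was negative. Of 90 ribosome biogenesis genes, 69 rose in WT from T0 to T30, with 55 under median-ratio scaling and 41 under quantile normalization, beside the 24.1%, 13.6% and 8.9% of all genes given above. None of the 90 passed the test between crz1 and WT at T30. Sterol, sphingolipid and fatty acid synthesis gave 0 of 35 (CHO2, a phospholipid methyltransferase, log2 1.28), and autophagy and endosomal sorting 0 of 15 (ATG1, the autophagy kinase, log2 -1.17).

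**Figure D5:**
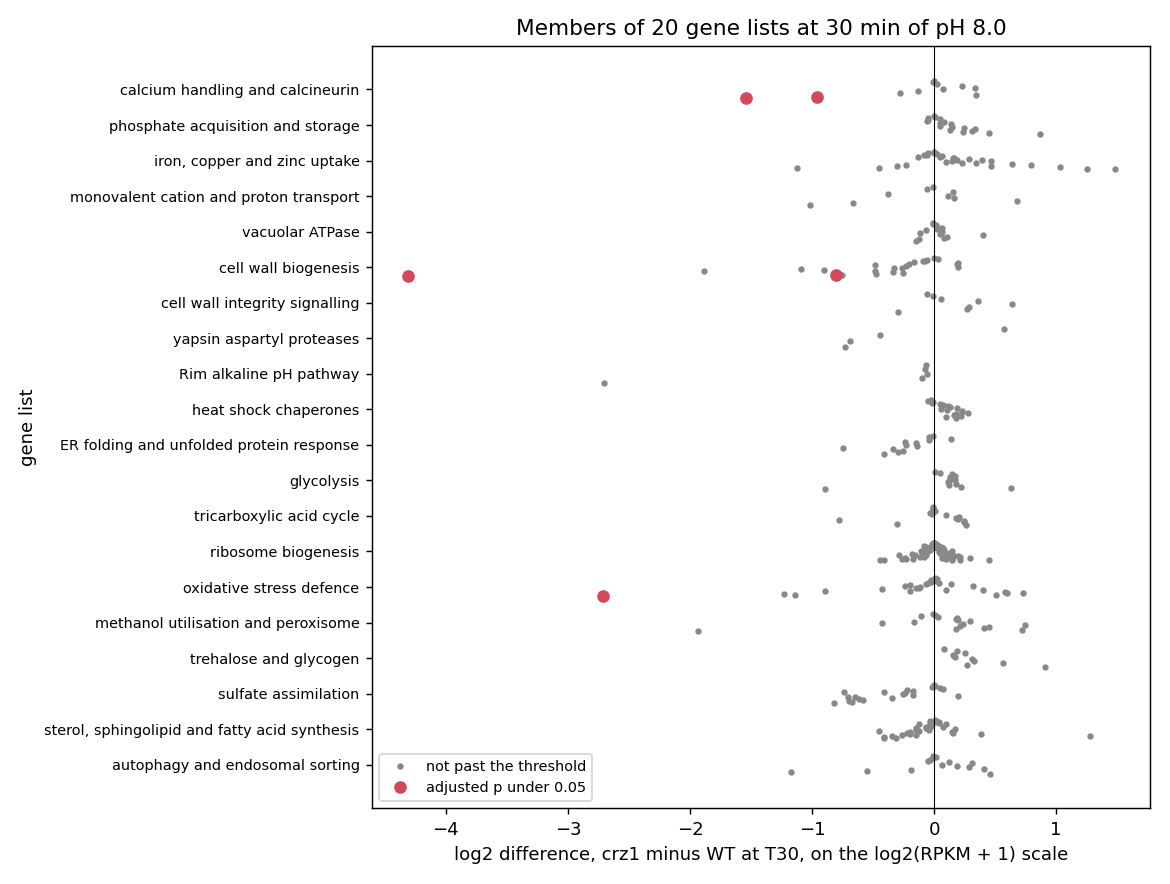
Log2 difference between crz1 and WT at 30 min of pH 8.0 (horizontal axis, log2(RPKM + 1) scale) for the measured members of 20 gene lists, with 1 point per gene. The 5 red points past the threshold are PMC1 and CMK2, TOH1 and ROT1, and MXR2-1.

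In the authors' deposited table, the 18 genes are compared only with WT T0. Of the 16 with a log2 fold change for both strains there, all 16 have a lower one for crz1 T30 than for WT T30. In the authors' deposited table TOH1 is at 1.34 in WT T30 and -3.05 in crz1 T30, and PMC1 at 2.04 and 0.45. The columns share WT T0 and the T30 libraries used here, so they are no independent support. The 18 were chosen for being lower in those T30 libraries, and the share of all genes with that order was not counted.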

How the data were processed

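RNA was poly-A selected and sequenced from non-directional libraries, per the labels' protocols. The authors' deposited table holds RPKM for 5040 genes, and Bowtie2 and edgeR appear, without version or role, per the submitters' processing notes. Their genome build was not stated, but all 5040 identifiers and their coordinates matched the RefSeq table of the GS115 assembly. The authors' deposited table of comparisons with WT T0 gives log2 fold changes and p-values (raw and FDR), and these were only set beside the results. How its zeros arose was not stated either.

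Depths were read from the step of 1 read in low RPKM, and in the 6 libraries 94.3 to 95.7% of these were whole numbers of reads within 0.1. No count model was run. A filter at a mean of 1 RPKM kept 4226 genes. limma 3.58.1 (R 4.3.3) fitted log2(RPKM + 1) in 12 groups of 32 libraries with an intensity trend (20 residual degrees of freedom), two-sided, with Benjamini-Hochberg adjustment. The fit was also run on simulated data with independent noise for each gene and library, which lacked the shared higher-median split. A call is an adjusted p under 0.05. Figures used Python 3.11.15, pandas 2.3.3 and matplotlib 3.10.9.

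The members, gene lists and tests were chosen with earlier results of these data known. Genes were named if at least 2-fold lower with a call, or as a list's called members or otherwise up to 2 members with the largest difference. PAS_chr1-1_0461, PAS_chr2-1_0171, PAS_chr2-1_0007, the essential genes and further list members were named after their values were seen. The labels number replicates 1 to 3 in both groups without saying that a number marks a shared day. Deviations of same-numbered libraries from their group means correlated across genes at 0.90, 0.45 and 0.70, all above 0.1. The numbers were therefore treated as pairs in the alternative fits with a replicate block, while the main fit had no pairing. WT 3 with crz1 2 (0.86) and WT 2 with crz1 3 (0.55) also correlated, so the values do not tell replicates 2 and 3 apart as pairs. Replicate 1 is the higher-median library in both groups.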

Additional observations from a re-analysis of the deposited data

Results flagged for a closer look

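PAS_chr1-1_0101, the arrestin-like gene, was the 1 gene whose change from T0 to T30 differed between crz1 and WT in the test of that difference itself (adjusted p = 0.00558, limma). It went from 0 in all 3 WT libraries at T0 to 20.5, 10.2 and 11.8 RPKM at T30, and it was listed at 0 in all 6 crz1 libraries of both times. In rim101 it was at 0 and 2.32 RPKM at T0 and at 74.3 and 30.5 RPKM at T30. Leaving out each of the 12 libraries in turn left the adjusted p between 0.00987 and 0.0365. The gene is listed at 0 throughout WT T0, crz1 T0 and crz1 T30. Leaving out a library of those groups could not move the estimate, so this range says little about its stability. The difference did not pass with quantile normalization (adjusted p = 0.0872), without the higher-median libraries (adjusted p = 0.0972), with the pairs as a replicate block in the groups compared (adjusted p = 0.0851) or with a pseudocount of 20 RPKM (adjusted p = 0.456). The part of the listed zeros in this result was not tested.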

How the results depend on the processing

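All 18 log2 differences stayed negative in every alternative that tested them, and no result reversed. Against 18 genes lower in crz1, a fit of only the groups compared gave 2, and so did the pairs as a replicate block in those groups. With n = 3 against 3 these fits have few degrees of freedom, and whether that accounts for the lost calls was not tested. The replicate block in the 12-group fit gave 26 and kept all 18, and it changed no call of the 18. Library type as a covariate gave 39, leaving out both higher-median libraries 6, and genes above 0 in all 6 libraries 11 of the 12 members testable (added after seeing the data). Median-ratio scaling gave 26 with 14 of the 18, and quantile normalization 25 with 12. A pseudocount of 0.1 RPKM gave 14, without MNN2-3, PAS_chr1-4_0696, PAS_chr1-3_0018 and PAS_chr4_0277 (adjusted p 0.0622 to 0.257). Leaving out 1 library gave 8 to 18 lower genes.

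Of genes at least 2-fold lower (14), median-ratio scaling gave 23, quantile normalization 22, only the groups compared 2, the replicate block there 2, library type 30, no higher-median libraries 6, genes above 0 in all 6 libraries 8, a pseudocount of 20 RPKM 9 (added after seeing the data), and leaving out 1 library 8 to 15. Genes higher in crz1 were 0 with limma, 1 with a pseudocount of 5 or 20 RPKM and 2 with no filter on low values.

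Genes with a lower response were 1. They were 3 with a pseudocount of 5 RPKM or with no filter, and 2 with a filter at 5 RPKM, median-ratio scaling, the replicate block in the 12-group fit, no intensity trend or a pseudocount of 20 RPKM. They were 7 with library type, and 0 with the replicate block in only the groups compared, without the higher-median libraries, with quantile normalization besides, or with genes above 0 only. The last of these settings does not test PAS_chr1-1_0101, which is listed at 0 in crz1. Leaving out 1 library gave 1 to 2. The causes were not tested. A count of promoters with the Crz1 element was not run, because promoter sequences were not used here. Depth of 4.95 to 13 M reads and the listed zeros limit what can be said of genes at a few RPKM.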

Other observations

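3 genes lay just outside the threshold. PNG1, a peptide N-glycanase that strips sugar chains from misfolded glycoproteins, was lower in crz1 by a log2 of -1.13 (SE 0.26, adjusted p = 0.0554). SSO2, a plasma membrane t-SNARE of secretory vesicle fusion, had a log2 difference of -0.50 (SE 0.12, adjusted p = 0.0873). OSH3, a member of the oxysterol-binding protein family, had a log2 difference of -1.28 (SE 0.32, adjusted p = 0.095). None of the 3 passed the test.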
